A study of Arabidopsis thaliana with 10 samples.

Results

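In rosettes of the Arabidopsis thaliana mutant abi4-102, 4 genes stood far higher than in both wild type Col 0 and the mutant vtc1: AT5G26270, AT5G03090, AT4G03530 and AT5G26020. They were picked for that pattern from earlier results of these data, so their differences between abi4-102 and the other genotypes are a description and carry no test. They are 4 of 13355 genes that had at least 1 probe set to themselves, and each is measured by 1 probe set. The study used 3 samples of wild type Col 0, 3 of abi4-102 and 4 of vtc1, each on 1 array hybridised with biotin-labelled RNA of whole rosettes harvested at 42 days. All plants grew on compost with 8 h of light per day and no treatment is named. The titles call the arrays biological replicates without saying whether 1 is a plant or a pool, so the errors measure the spread between these samples. Each mutant genotype is named as 1 line, so the effect of its mutation and any other difference of that line from Col 0 cannot be told apart.

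ABI4 is a transcription factor of the AP2/ERF family, known for its part in abscisic acid and sugar signalling and in communication from plastids to the nucleus. The abi4 mutants are insensitive to abscisic acid. VTC1 makes GDP-mannose, a precursor of ascorbate, and vtc1 plants hold little ascorbate. The annotation gave neither ABI4 nor VTC1 an unshared probe set, so their transcripts could not serve as a check of the genotypes. The gene table of the TAIR10.1 assembly gives none of the 4 genes a name beyond its locus code. It lists AT5G26270 and AT5G03090 as protein-coding, and AT4G03530 and AT5G26020 as pseudogenes, gene copies that are thought not to give a working protein. AT4G03530 lies on chromosome 4 and the other 3 on chromosome 5.

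Values are the authors' deposited linear intensities per probe set. Array medians lay between 42.6 and 45.6, and arrays of the same genotype correlated at 0.997 to 0.999 across probe sets. A probe set was taken as above background on an array when it exceeded the highest of 27 probe sets for Bacillus genes, a control level of 15.2 to 19.8. Genes of lists and genes beside the 4 are called measured where the annotation used gave them a probe set to themselves. It gave no gene to 8730 of the 22746 probe sets, so a gene not called measured could still have probes on the array. The tissue carried strong leaf transcripts: the 5 measured members of a list of 15 leaf markers summed to 30176 to 30668 in wild type, 26159 to 27787 in abi4-102 and 27401 to 28294 in vtc1. Of those 5, 3 fell in abi4-102 against wild type and none rose, where 16% of all probe sets were called lower. PRK, phosphoribulokinase of the Calvin cycle, fell in abi4-102 from 4146 ± 70.8 (SD, n = 3) to 2606 ± 244 (n = 3), and RCA, the activase of Rubisco, from 7468 to 5818 (limma adjusted p = 2.4e-06 and 0.00015). SBPASE, of the same cycle, fell from 3895 to 3214 (adjusted p = 0.00539), though it was not called under spike-in scaling, and the antenna proteins LHCB4.1 and LHCB4.2 had log2 differences of -0.03 and 0.10 that were not called. RCA, PRK and SBPASE were also called lower in vtc1 against wild type, with log2 changes of -0.16, -0.22 and -0.51. In that comparison 18.5% of all probe sets were called lower. Between the mutants, RCA and PRK were lower in abi4-102 than in vtc1 (-0.20 and -0.46), and SBPASE was higher (0.23). The root hair expansin EXPA7, the only measured one of 7 root markers, read 16.9 to 22.9 in abi4-102 and 24.9 to 29.9 in wild type. Only 2 of its 3 abi4-102 arrays were above the control level. In vtc1 it read 19.8 to 24.2, also called lower than wild type (log2 change -0.34, limma adjusted p = 0.0124), and its difference of -0.07 between the mutants was not called. None of 11 flower and pollen markers and none of 11 seed markers had a probe set to itself in the annotation used. The part of these markers in the levels of the 4 genes was not tested, and in whole rosettes a change in the number of cells of a type and a change of RNA per cell cannot be told apart.

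AT5G26270, listed as protein-coding, was bright in abi4-102 and dim elsewhere. The 3 abi4-102 arrays read 1602, 1679 and 3149. The wild type arrays read 35.0, 38.6 and 37.6, and the vtc1 arrays 31.2, 36.1, 41.5 and 34.6. Every abi4-102 array thus lay above every other array, the lowest by 38.65 times. Means were 2144 ± 872 (SD, n = 3) in abi4-102, 37.1 ± 1.87 (n = 3) in wild type and 35.8 ± 4.26 (n = 4) in vtc1. All 10 arrays were above the control level, so this gene was measured in each genotype. On the log2(value + 1) scale, used for all fold changes here, abi4-102 stood 53.6-fold above wild type and 55.6-fold above vtc1. Both differences were the largest of 22746 probe sets.

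AT5G03090, also listed as protein-coding, read 79.5, 121.9 and 125.0 on the abi4-102 arrays. It read 12.1, 11.5 and 12.9 in wild type and 11.3, 10.6, 12.7 and 11.6 in vtc1, all below the control level. The abi4-102 arrays were therefore the only ones where it was above background. Its mean of 109 ± 25.4 (SD, n = 3) was at least 5.92-fold above wild type and at least 6.34-fold above vtc1, the bounds being set against the control level of those arrays. The measured means below that level were 12.2 ± 0.738 (n = 3) in wild type and 11.5 ± 0.899 (n = 4) in vtc1.

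The annotated pseudogene AT4G03530 read 58.1, 36.0 and 53.9 in abi4-102. Wild type gave 7.2, 7.8 and 6.9, and vtc1 gave 8.0, 7.0, 8.2 and 7.6. Again no array outside abi4-102 reached the control level, and the groups did not overlap. The mean of 49.3 ± 11.7 (SD, n = 3) was at least 2.71-fold above wild type and at least 2.91-fold above vtc1. Its probe set is of the type marked "s", whose probes can match several similar transcripts, so the signal may come from related copies as well as from this locus.

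The annotated pseudogene AT5G26020 was likewise above the control level in abi4-102 alone. Its abi4-102 arrays read 52.1, 48.1 and 69.0. Wild type arrays read 12.6, 13.4 and 13.6, and vtc1 arrays 13.0, 12.8, 12.3 and 12.6, all below the control level. Its mean of 56.4 ± 11.1 (SD, n = 3) was at least 3.12-fold above wild type and at least 3.34-fold above vtc1. The lowest abi4-102 array was 3.54 times the highest of the other 7.

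**Figure D1:**
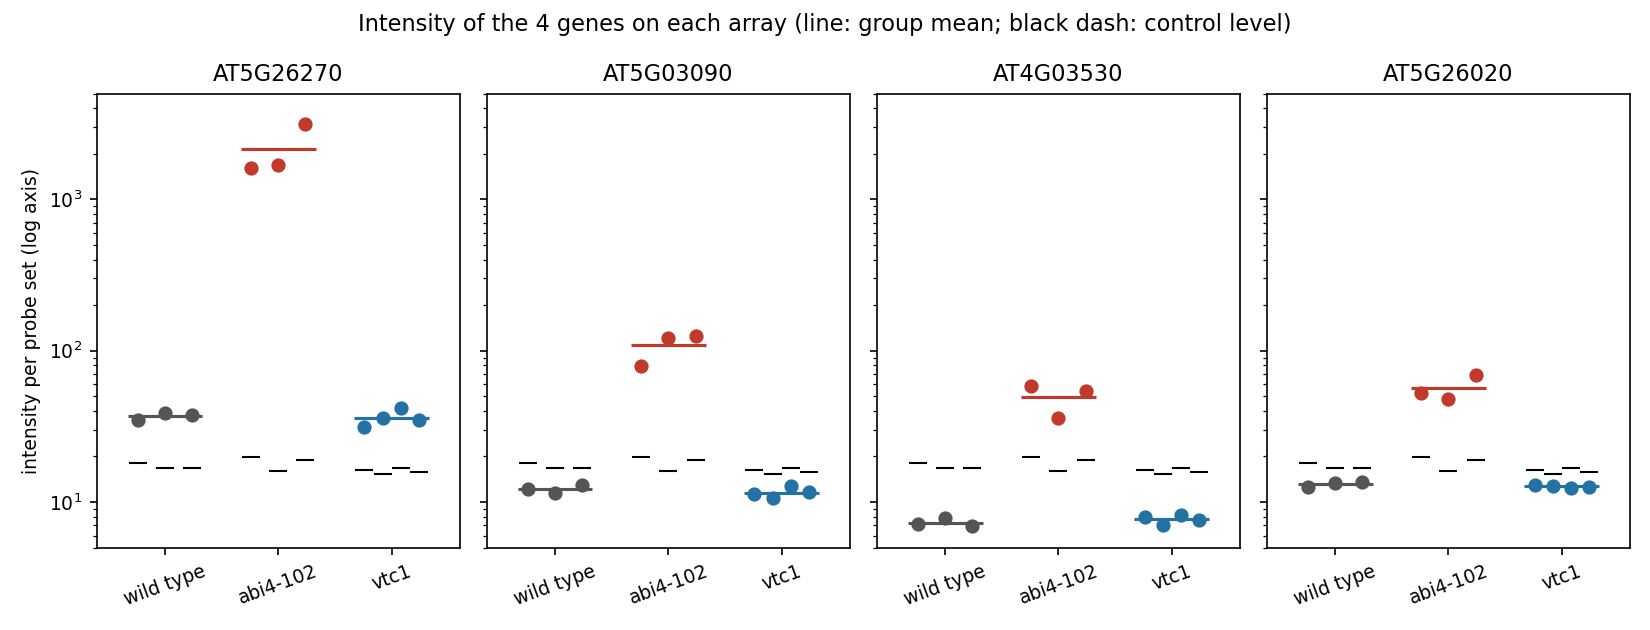
Intensity of each of the 4 genes on each array (log axis), with 3 wild type, 3 abi4-102 and 4 vtc1 arrays; points are arrays, coloured lines are group means and black dashes the control level of that array. In each gene all abi4-102 arrays lie above all others, and outside abi4-102 only AT5G26270 lies above the control level.

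Non-overlap of this kind was common on these arrays: every abi4-102 array lay above all 7 others for 11.6% of the probe sets, and 34.9% were called between abi4-102 and wild type at an adjusted p under 0.05. The 4 genes were picked for the size of the difference, so their rank restates the choice. Ordered by the smaller of the differences from wild type and from vtc1, they were the first 4 of all 1-gene probe sets, with fitted log2 values of 5.74, 3.03, 2.51 and 2.0. Except for AT5G26270, these values are set against readings below the control level and are not measured sizes. With a pseudocount of 16 in place of 1 the values were 5.28, 2.13, 1.45 and 1.30, and QQS, at 1.60, came before AT4G03530 and AT5G26020. Those 2 differences share the abi4-102 arrays. Only 34 probe sets, 19 of them with 1 gene, stood 2-fold or more above both other genotypes.

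Just outside the 4 genes came the annotated pseudogene AT2G20460, with 50.1, 73.8 and 109.5 in abi4-102, 20.6 to 22.9 in wild type and 17.9 to 20.6 in vtc1. Its smaller log2 difference was 1.74, against 2.0 for AT5G26020 just inside. QQS, a gene known for its effect on leaf starch, followed with a different pattern. It read 472 ± 33.6 (SD, n = 3) in abi4-102 and 46 ± 4.81 (n = 3) in wild type, but it was also raised in vtc1, at 144 (log2 change 1.63, limma adjusted p = 7.5e-11). The rest of the first 10 were AT4G14090, a glucosyltransferase of anthocyanin synthesis, AT2G20670, the annotated pseudogene AT2G16000 and AT5G19120, with log2 differences of 1.34 to 1.49 from wild type and 1.45 to 1.78 from vtc1.

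Another 3 probe sets, not named by the annotation and so outside the rule, stood high in abi4-102 against readings below the control level on all 7 other arrays, so their differences have no measured size. Probe set 266680_s_at read 136.8, 103.0 and 121.6 in abi4-102 and 7.7 to 8.5 on the other arrays. Probe set 250083_at read 72.2, 73.7 and 70.1 in abi4-102 and 8.2 to 11.2 elsewhere. Probe set 267139_s_at read 29.1, 21.4 and 20.5, against 5.9 to 6.4. Probe set 255715_s_at read 29.4, 24.3 and 31.9, against 6.7 to 7.2 in wild type and 8.7 to 9.6 in vtc1. It was also called higher in vtc1 than in wild type (log2 value 0.34), both below the control level. The last such probe set, 262226_at, was above the control level on every array, at 348 ± 15.5 (SD, n = 3) in abi4-102, 118 ± 14.1 (n = 3) in wild type and 123 ± 10 (n = 4) in vtc1.

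**Figure D2:**
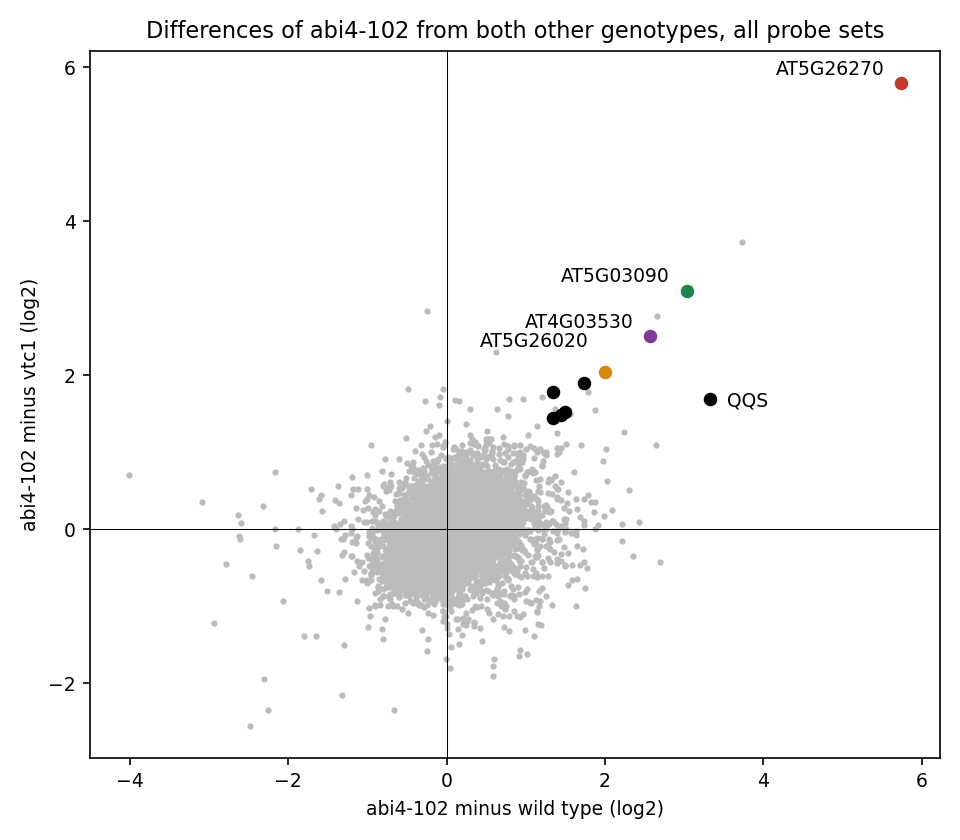
Difference of abi4-102 from wild type (horizontal) and from vtc1 (vertical), both in log2, for all 22746 probe sets in grey; coloured points are the 4 genes and black points the rest of the first 10 probe sets with 1 gene. AT5G26270 stands alone at 5.74 and 5.80, the other 3 genes lie along the diagonal at values set against readings below the control level, and QQS lies off it.

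The spread between the abi4-102 replicates was wide for all 4 genes. The SD of the 3 log2 values was 0.54 for AT5G26270, 0.36 for AT5G03090, 0.36 for AT4G03530 and 0.27 for AT5G26020, against a median of 0.088 over all probe sets. Of all probe sets, 2 others had an SD at least as wide as that of AT5G26270. For AT5G03090, AT4G03530 and AT5G26020 the numbers were 34, 33 and 289. Among the 365 probe sets within 0.5 log2 units of the abi4-102 mean of AT5G26270, the median SD was 0.069 and none had one as wide. Of the probe sets as near to the other means, 1 of 3220 was as wide for AT5G03090, 8 of 2877 for AT4G03530 and 79 of 2963 for AT5G26020. A wide spread was not confined to the 4 genes: AT2G20460, next in the ranking, had an SD of 0.56.

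In each gene 1 array stood apart from the other 2, and it was not the same array throughout. In AT5G26270 replicate 3 was high, 1.97 times the lowest, while replicates 1 and 2 differed by an SD of 0.05 (log2). In AT5G26020 replicate 3 was likewise the highest and replicates 1 and 2 lay close (SD 0.08). In AT5G03090 replicate 1 was low and replicates 2 and 3 lay close (SD 0.03). In AT4G03530 replicate 2 was low and replicates 1 and 3 lay close (SD 0.07). Whole-array shifts were small beside this: relative to the mean of the 3 abi4-102 arrays, the median probe set deviated by 0.02, 0.01 and -0.03 (log2) in replicates 1, 2 and 3, whereas AT5G26270 deviated by -0.35, -0.28 and 0.63. Without replicate 3 the abi4-102 mean of AT5G26270 was 1641 in place of 2144.

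**Figure D3:**
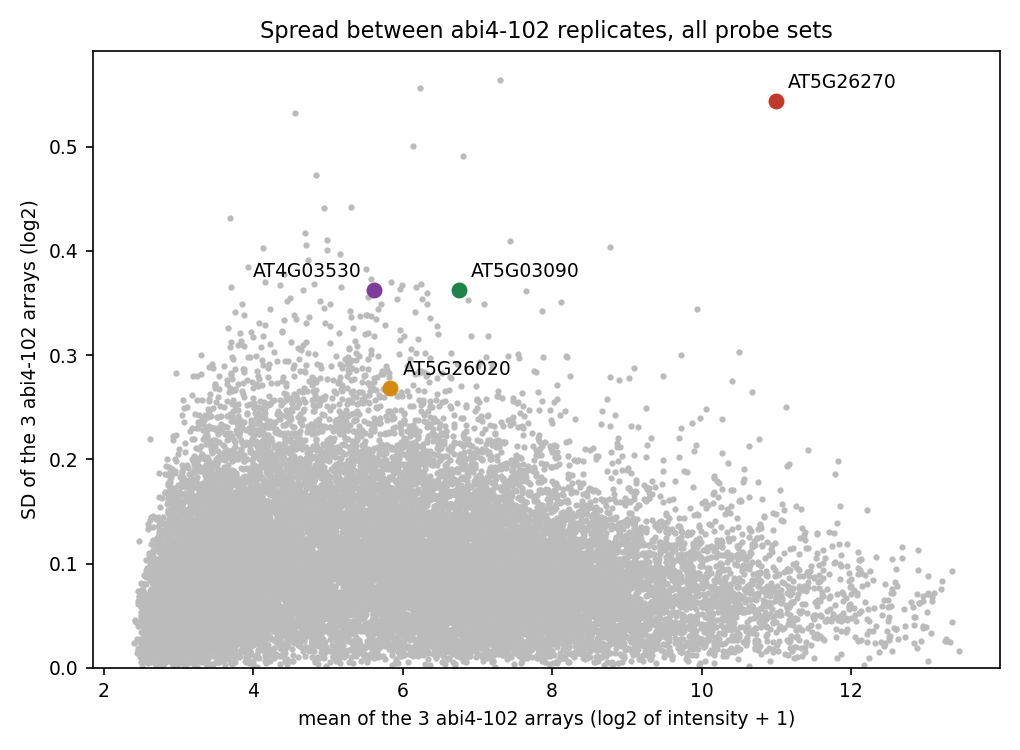
SD of the 3 abi4-102 arrays against their mean, both on the log2 scale, for all probe sets (grey) and the 4 genes (coloured). AT5G26270 has an SD of 0.54 at a mean of 10.99, above every probe set of similar brightness, and the others lie at 0.27 to 0.36.

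The SDs outside abi4-102 were smaller than in it for each of the 4 genes. In wild type the SD of the log2 values was 0.05 to 0.08 for the 4 genes, beside a median of 0.080 over all probe sets. In vtc1 it was 0.16 for AT5G26270 and 0.03 to 0.10 for the other 3, beside a median of 0.078. The readings of those 3 in wild type and vtc1 were below the control level, so their SDs there describe background.

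The comparison of vtc1 with wild type did not choose the genes, although a gene raised in vtc1 as strongly as in abi4-102 would not have been picked. None of the 4 was called in it, where 36.6% of all probe sets were. AT5G26270, the only one above background in both genotypes, differed by a log2 value of -0.05 (limma adjusted p = 0.84, 95% interval -0.41 to 0.30). A fit of the vtc1 and wild type arrays alone, free of the wide abi4-102 spread, narrowed that interval to -0.23 to 0.13 (adjusted p = 0.66). The data thus set a limit on the difference and do not show that the levels are alike. AT5G03090, AT4G03530 and AT5G26020 had log2 differences of -0.07, 0.06 and -0.06 below the control level, and no fold is given for them. Scaling the arrays on their spike-in controls moved the median of all probe sets in this comparison to 0.21, and AT4G03530 was then called, at a log2 value of 0.30.

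Between abi4-102 and wild type, the fitted differences of the genes measured beside the 4 on the chromosome were all less than 2-fold. Larger rises were rare everywhere: 247 of all 22746 probe sets stood 2-fold or more higher in abi4-102 than in wild type. A lack of them among the neighbours therefore does not set these apart from other genes. For each of the 4 the 5 nearest measured genes on either side were taken, 40 in all, lying 1 to 15 genes away. In abi4-102 against wild type 4 of the 40 rose and 5 fell, while 18.8% of all probe sets were called higher and 16% lower. Their log2 changes ran from -0.73 to 0.37 with a median of -0.04. Of the 40, 18 were above the control level on no array, so their differences have no measured size.

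The closest measured neighbours gave small differences. AT4G03520 (ATHM2), a plastid thioredoxin next to AT4G03530, read 3080 in wild type and 3002 in abi4-102, a log2 difference of -0.04 that was not called. AT5G26280 is 2 genes after AT5G26270. It was called lower by -0.52 (limma adjusted p = 0.00015), but read below the control level on every array, so that call has no measured level behind it. AT5G26260, 3 genes before it, was not called (0.10). Beside AT5G03090, AT5G03030 rose from 339 to 407 (log2 change 0.26), while AT5G03180 and AT5G03190 (CPUORF47) fell by 0.73 and 0.49 on the log2 scale, from 75.7 to 45.9 and from 104 to 73.9. AT5G03130 was called lower by 0.48 and was below the control level in abi4-102. AT5G26200 rose from 28.1 to 36.7 (0.37).

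The calls of 3 further neighbours were not firm. AT4G03450 (log2 change 0.36, limma adjusted p = 0.0342), AT5G25940 (0.17, 0.0377) and AT5G26360 (-0.17, 0.0378) each lost theirs under several alternatives. Those of AT5G25940 and AT5G26360 were lost with the replicate block (adjusted p = 0.0719 and 0.063), in the fit of 2 genotypes and with spike-in scaling. Those of AT5G25940 and AT4G03450 were lost with quantile normalization, that of AT5G25940 also with array medians subtracted, and that of AT4G03450 also with a pseudocount of 16. That of AT4G03450 was lost without replicate 1 or replicate 3 of wild type, or replicate 2 or replicate 3 of abi4-102, with adjusted p of up to 0.14. That of AT5G26360 was lost in the absence of wild type array 1 or 2, of abi4-102 array 1 or 3, or of vtc1 array 1 or 4 (up to 0.14). That of AT5G25940 was lost without any 1 wild type array, abi4-102 replicate 1 or 3, or vtc1 replicate 1 or 4 (up to 0.12). AT4G03450, 13 genes from AT4G03530, stood out for vtc1: it rose there from 90.6 ± 8.69 (SD, n = 3) to 235 ± 35.9 (n = 4), a log2 change of 1.35 (adjusted p = 1.4e-07). In vtc1 against wild type 7 of the 40 neighbours were called, or 17.5%, beside 36.6% of all probe sets. That count was 17 with array medians subtracted and 17 with spike-in scaling.

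AT5G26020 and AT5G26270 lie on the same stretch of chromosome 5 with 34 annotated genes between them. Of those, 12 were measured, and 7 of the 12 were above the control level on no array. In abi4-102 against wild type 1 of the 12 rose (AT5G26200) and 1 was called lower (AT5G26130, -0.25), beside the 18.8% and 16% over all probe sets. AT5G26130 was below the control level on every array, so its call has no measured level behind it. The log2 differences of the 12 were -0.25 to 0.37. The raised signal at both ends was therefore not seen in the measured genes between them.

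**Figure D4:**
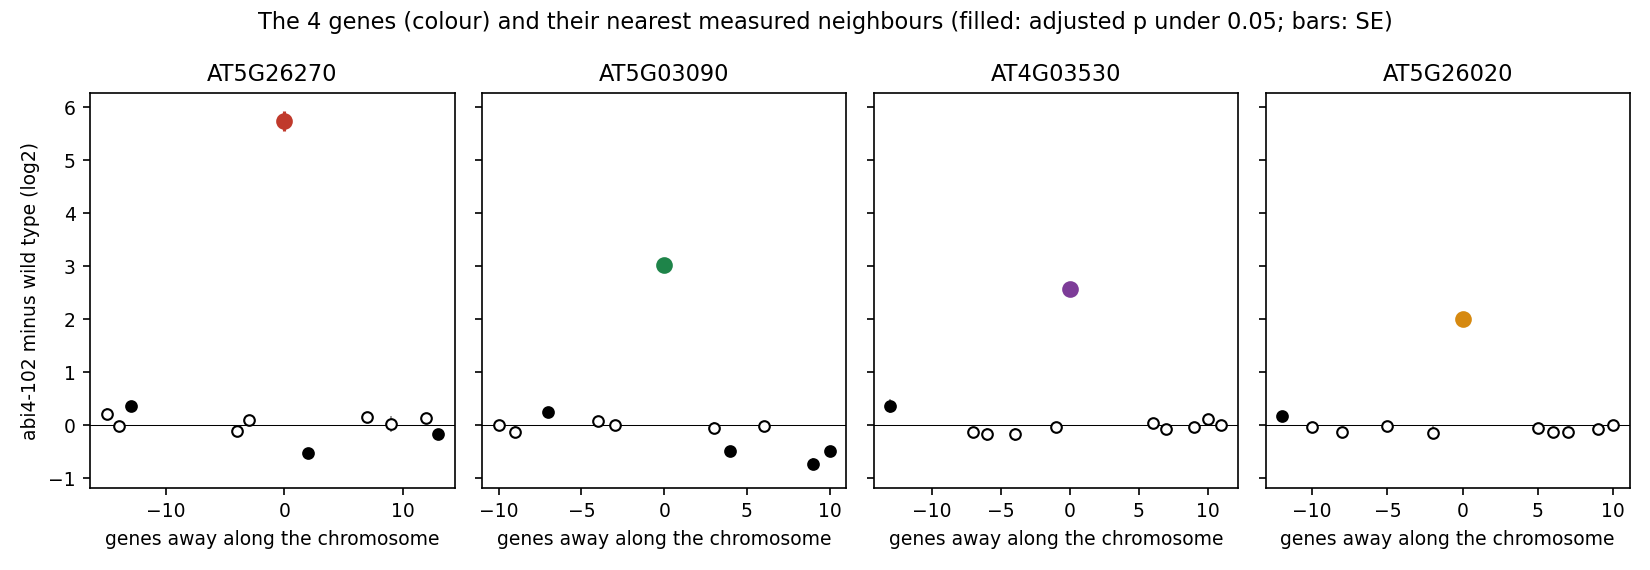
Difference of abi4-102 from wild type (log2, bars are SE) for each of the 4 genes in colour and for its 5 nearest measured neighbours on each side, placed by the number of genes away; filled points had an adjusted p under 0.05. The 4 genes stand at 2.0 to 5.74, in all but AT5G26270 against wild type readings below the control level, and their 40 neighbours at -0.73 to 0.37.

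Gene type and chromosome, which the rule did not use, were compared as counts. Annotated pseudogenes made up 7.32% of the 1-gene probe sets (989), but 2 of the 4 genes and 4 of the first 10 in the ranking. The 4 pseudogenes among the first 10 include those 2, which the rule had picked. No other pseudogene was among the 19 that stood 2-fold or more above both other genotypes, so these counts are nested. Calls were rarer among pseudogenes: leaving out the 4 genes, 38 of 987 were called higher in abi4-102 and 22 lower, or 3.85% and 2.23%, against 17.3% and 14.5% of all 1-gene probe sets. Only 180 of the 987 were above the control level on any array. After AT2G20460 and AT2G16000, the next pseudogene was AT3G43640, at 19.0 in abi4-102 and 11.1 in wild type. AT3G43640 was above the control level on 2 of its 3 abi4-102 arrays and on no wild type or vtc1 array, so that difference has no measured size. Its probe set is also of the type marked "s". Chromosome 5 holds 22.3% of the 1-gene probe sets and 3 of the 4 genes. Without those 3, 18.2% of its probe sets were called higher in abi4-102 and 15.0% lower, with a median log2 change of -0.01.

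The patterns most like those of the 4 genes over the 10 arrays were mostly each other's. Among 732 probe sets with 1 gene and a span of at least 1 in log2, AT5G26270 correlated best with AT5G26020 (Pearson r = 0.997), then with AT5G03090 (0.994) and AT4G03530 (0.988). AT4G03530 was closest to AT1G10585 (0.994), which read 13.2 in abi4-102 and 6.56 in wild type, both below the control level. After 2 of the 4 genes, AT5G03090 was closest to AT2G43590 (0.988), at 71.1 in abi4-102, 36.9 in wild type and 32.7 in vtc1. These values describe 10 arrays that fall into a high group and a low group, and such a split alone gives a high r.

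Lists of genes around ABI4 and gene silencing were thinly measured. Of 27 genes of the abscisic acid response 3 were measured, and 2 fell in abi4-102 against wild type: the dehydrin COR47 from 3599 to 2971 and LEA4-5 from 42.8 to 31.3 (log2 changes -0.28 and -0.44, limma adjusted p = 0.00156 and 0.0018). COR15A was not called (0.15). The median of the 3 was -0.28, against -0.01 for all probe sets, of which 16% were called lower. In vtc1 against wild type 2 of the 3 also fell, COR47 by 1.04 and COR15A by 0.52 on the log2 scale, and both were higher in abi4-102 than in vtc1 (0.76 and 0.66). COR47 was not called between abi4-102 and wild type under spike-in scaling. Of 33 genes of DNA methylation and RNA-directed silencing only DME was measured, a DNA glycosylase that removes methylated cytosine. DME read 41.3, 49.4 and 35.6 in abi4-102, below all wild type arrays (66.1, 58.8 and 78.6) and all vtc1 arrays (57.8 to 73.6). It fell by 0.68 against wild type (SE 0.12, limma adjusted p = 0.00034), and it was lower than in vtc1 by a log2 value of -0.69 (adjusted p = 0.00014), in a comparison where 39.0% of the probe sets were called. With 1 gene measured, the list as a whole is not described by it.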

How the data were processed

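For 10 arrays the authors deposited a value table, whose linear intensities were used as they stand. Their probe summary and array scaling are not stated in the labels used here. The 64 control probe sets were set aside and log2(value + 1) of the other 22746 entered 1 linear model whose sole term was genotype, fitted with lmFit and eBayes of limma 3.58.1 under R 4.3.3 (two-sided). Benjamini-Hochberg adjustment ran over all probe sets, and an adjusted p under 0.05 counted as called. The fit was tested on simulated data. Tables came from pandas 2.3.3 and plots from matplotlib 3.10.9, both run in Python 3.11.15. Genes came from the platform annotation: 13513 probe sets had 1 gene, 503 several and 8730 none in the table used. Of the first, 13436 matched the TAIR10.1 gene table, which gave names, gene types, chromosomes and gene order. The array table names no build, so no coordinates are given.

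A fold is given as "at least" where all arrays of the dimmer group failed to exceed the brightest of 27 Bacillus controls. The brighter mean is then set against that level on those arrays. The members, gene lists and tests were chosen with earlier results of these data known. Named were the 4 genes, their 5 nearest measured neighbours on each side, the first 10 probe sets by the smaller difference, the 3 most correlated probe sets per gene, and up to 3 called genes per list (2 where none was called). AT5G26130, AT3G43640 and the probe sets described without a gene were chosen after their values were seen. A search for related proteins could not be made without sequences. Alternatives were other scalings, a pseudocount of 16, a filter on dim probe sets, a replicate block, fits of 2 genotypes, a trended robust variance, and each array left out. The number of arrays limits the precision.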

Additional observations from a re-analysis of the deposited data

Results flagged for a closer look

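In 3 neighbours of the 4 genes, 1 of the 4 vtc1 arrays lay far from the others, by a gap to its nearest array that, as a share of the group's log2 range, passed Dixon's 95% critical value. For AT5G26260, below the control level throughout, vtc1 replicate 3 was lowest at 8.6 (gap 0.861 of the range). For AT4G03610 replicate 2 was lowest at 47.5, with the others at 53.1 to 53.7 (0.902). For AT5G26110 replicate 2 was lowest at 91.8, with the others at 102.0 to 103.2 (0.901). Of 57 genes looked at, 3 met this rule, and chance alone gives about 1 in 20 groups. None of the 4 genes met it in vtc1, and groups of 3 arrays were not examined.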

How the results depend on the processing

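The differences of the 4 genes between abi4-102 and either other genotype kept their direction under all 18 alternatives, but their size moved. Against wild type a pseudocount of 16 lowered them to 5.28 (AT5G26270), 2.13 (AT5G03090), 1.47 (AT4G03530) and 1.30 (AT5G26020), from 5.74, 3.03, 2.57 and 2.0, and against vtc1 to 5.31, 2.16, 1.45 and 1.33. In vtc1 against wild type, spike-in scaling turned the log2 differences of AT5G26270, AT5G03090 and AT5G26020 to 0.18, 0.16 and 0.18, not called, and that of AT4G03530 to 0.30, called. With 1 array left out that of AT5G26270 ran from -0.12 to 0.01. Leaving out 1 abi4-102 array gave SDs of 0.05 to 0.69 for AT5G26270, 0.03 to 0.46 for AT5G03090, 0.07 to 0.48 for AT4G03530 and 0.08 to 0.36 for AT5G26020. The 7 neighbours called in vtc1 against wild type became 17 with array medians subtracted, and 17 with spike-in scaling; the share of higher calls over all probe sets moved there from 49.5% to 36.4% and 89.4%. In abi4-102 against vtc1, spike-in scaling moved that share from 54.3% to 13.3%. AT5G26110 in abi4-102 against wild type, at 0.00, went to -0.01 after subtraction of array medians, to -0.05 under quantile normalization and to -0.08 to 0.05 with 1 array left out, and AT4G03520 to -0.11 to 0.00. COR47 and SBPASE were not called under spike-in scaling. The cause of these changes was not tested. With the replicate block 7611 probe sets were called in abi4-102 against wild type, in place of 7928. Same-numbered arrays of those genotypes deviated with correlations of 0.04, -0.04 and -0.02, and differently numbered ones with -0.06 to 0.08. For wild type and vtc1 they were 0.09, 0.04 and 0.10, against -0.15 to 0.04. For abi4-102 and vtc1 they were -0.03, -0.05 and -0.02, against -0.01 to 0.06. These values do not settle whether the numbers pair the samples.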
